A study of Rattus norvegicus with 6 samples.

Results

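Podocyte genes were followed in rat kidney through 8 genes: Nphs1, Podxl, Synpo, Wt1, Tcf21, Cdkn1c, Ptpro and Magi2. Every probe set that the array annotation assigned to one of these symbols alone was taken, which gave 13 of the 31042 probe sets and covered 7 of the 8 genes, among 14217 genes named in all. The brightest probe set of a gene over the 6 arrays gave its main value, and the 6 further probe sets served as a check. Magi2, which encodes a scaffold protein of the slit diaphragm, had no probe set by this rule, so its signal was not analysed here.

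The study compared whole-kidney RNA of 2 strains of adult male rats on Affymetrix arrays, 1 array per animal. S, the parental strain (inbred Dahl salt-sensitive, SS/Jr), is a model of salt-sensitive hypertension and contributed 3 kidneys. The congenic strain, S.LEW(D1MCO4x1x3Bx1), has part of Lewis chromosome 1 on that same S background, and also contributed 3 kidneys. Both groups thus share the S genome outside the donor segment, and the series' title names Adamts16 as the gene under study. Exact age, diet and blood pressure were not stated. Each array has its own animal number in the labels. The comparison rests on 1 congenic line.

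Podocytes are the epithelial cells that wrap the capillaries of the glomerulus, the filter of the kidney. Their interlocking foot processes are joined by the slit diaphragm, a cell junction built around nephrin, and rest on the glomerular basement membrane. Mature podocytes scarcely divide, and their loss or injury lets protein into the urine, a feature of hypertensive disease in Dahl rats. The members differ in role. Nphs1 encodes nephrin. Podxl encodes podocalyxin, the negatively charged sialoprotein of the podocyte's apical surface, and Ptpro encodes GLEPP1, a receptor tyrosine phosphatase of the same surface. Synpo encodes synaptopodin, an actin-binding protein of the foot process. Wt1 and Tcf21 are transcription factors of podocyte development and maintenance, and Cdkn1c encodes p57, a cyclin-dependent kinase inhibitor kept on in the resting podocyte.

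The sequence before the start of 3 members is shown because the results turn on these genes. By their brightest probe sets, Nphs1 and Podxl gave the most negative correlation of any pair. Tcf21 was the one member whose strains did not overlap. The sequences are the 250 bases before the transcription start in RefSeq, build GRCr8, 5′ to 3′ on the gene's strand, with matches to the GC box GGGCGG in capitals on either strand. The Nphs1 stretch is chr1:94848011-94848260 on the plus strand, that of Podxl chr4:61149132-61149381 on the minus strand and that of Tcf21 chr1:24520249-24520498 on the plus strand.
Nphs1: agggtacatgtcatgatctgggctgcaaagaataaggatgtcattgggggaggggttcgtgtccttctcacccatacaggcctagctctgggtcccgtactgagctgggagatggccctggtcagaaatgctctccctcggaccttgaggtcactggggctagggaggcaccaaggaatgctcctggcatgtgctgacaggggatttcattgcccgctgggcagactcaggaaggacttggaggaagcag
Podxl: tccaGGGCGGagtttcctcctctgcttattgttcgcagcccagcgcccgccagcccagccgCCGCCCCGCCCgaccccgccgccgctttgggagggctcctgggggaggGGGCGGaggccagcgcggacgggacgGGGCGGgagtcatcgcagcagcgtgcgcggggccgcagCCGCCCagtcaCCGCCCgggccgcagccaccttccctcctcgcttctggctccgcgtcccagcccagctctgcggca
Tcf21: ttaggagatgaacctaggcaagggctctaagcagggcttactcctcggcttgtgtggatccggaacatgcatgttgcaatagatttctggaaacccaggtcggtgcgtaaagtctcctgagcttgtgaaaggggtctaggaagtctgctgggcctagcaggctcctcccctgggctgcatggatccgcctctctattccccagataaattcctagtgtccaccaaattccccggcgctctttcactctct
Podxl held 7 matches to GGGCGG, 3 of them on the strand of the gene, and G and C made up 76.4% of its stretch. Nphs1 and Tcf21 held none, at 57.2% and 53.6% G and C, against a median of 51.2% over all promoters. The 7 members searched here include Magi2 but not Cdkn1c, for which no promoter sequence was at hand. Of these 7, Podxl and Synpo held the letters GGGCGG, as did 30.5% of the 33469 promoters searched. None of them held GCGNGGGCG, a zinc finger site of the type bound by WT1 (4.29% of all promoters), or the TCC repeat TCCTCCTCC (2.37%). The E-box CAGCTG (12%) and TATAAA (12.9%) were also absent from these 7. All motifs were searched on both strands. These counts describe the letters of a short window.

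All 6 arrays carried kidney signal: Lrp2, the megalin gene of the proximal tubule, had a scaled signal of 17460 to 21370, Umod of the thick ascending limb 24420 to 37750, and Aqp2 of the collecting duct 6614 to 9388. The leukocyte marker Ptprc read 158.5 to 273.4, near the limit of 165 above which probe sets were tested, and the endothelial marker Pecam1 read 591 to 707.9. All 7 members passed the filter on low signals with their brightest probe set, and 11 of their 13 probe sets did so. Array medians ran from 162.5 to 178.3, and the beta-actin ratio of 3' to 5' signal, which rises as RNA degrades, from 1.94 to 2.30. In whole kidney, fewer podocytes and less RNA per podocyte cannot be told apart. Nor can a member's signal from podocytes be told apart from its signal from other cells.

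The first comparison asked whether the congenic kidney differed from the S kidney in these genes. None of the 7 members passed the threshold of adjusted p 0.05 in limma. The same fit called 0 of the 15521 probe sets tested (0.0%), with a smallest adjusted p of 0.0697. At unadjusted p below 0.05 there were 1602 probe sets (10.3%; 4.72% higher and 5.61% lower in congenic kidneys) and 1 member, Tcf21, which was lower. In the mean, 4 members were higher and 3 lower in congenic kidneys. The median log2 difference, congenic minus S, was 0.0022 over the members and 0.01 over the 9334 genes tested. Differences of the members ran from -0.26 to 0.19, and 84.5% of all tested genes had a difference smaller in size than 0.26.

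**Figure D1:**
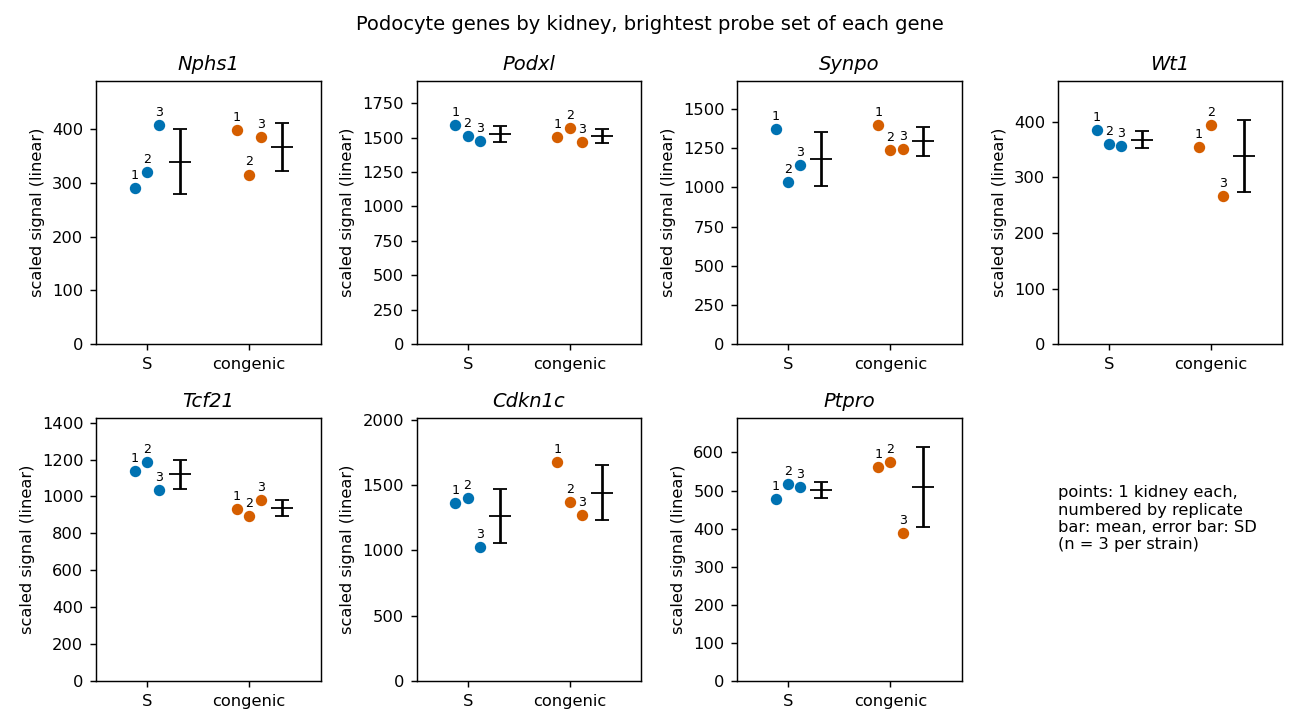
Scaled signal (linear axis from 0) of the brightest probe set of 7 podocyte genes in each of 3 S (blue) and 3 congenic (orange) kidneys, numbered by replicate, with the mean and SD of each strain. Only the Tcf21 values of the strains do not overlap, with S kidneys from 1035 to 1189 and congenic kidneys from 894.9 to 983.2.

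Tcf21, the transcription factor also called Pod1, gave signals of 1136, 1189 and 1035 in S replicates 1 to 3 and 933.4, 894.9 and 983.2 in congenic replicates 1 to 3. The lowest S kidney thus lay above the highest congenic kidney. The means were 1120 ± 78.5 in S and 937.1 ± 44.3 in congenic kidneys (SD, n = 3 each), a ratio of 0.837. On the log2 scale the difference was -0.26 (SE 0.104, 95% interval -0.48 to -0.03, limma unadjusted p = 0.0272 and adjusted p = 0.42). The exact permutation test, 2-sided, gave p = 0.1, the smallest value that 3 against 3 allows. Among all probe sets tested, 7.99% had all 3 congenic values below the S values and 7.98% had them all above, against 1 and 0 of the 7 members. Tcf21 has 1 named probe set, so no second measurement on the array was at hand. In the gene order of GRCr8 it lies on the chromosome of Adamts16 with 49 protein-coding genes between. Adamts16 itself read 43.49 to 225.5 over the 6 kidneys, under the filter. Nphs1 and Cdkn1c share that chromosome too, with 828 and 2178 protein-coding genes between. Their differences were of the other sign, with 95% intervals that spanned 0. Whether any of these genes lies within the donor segment was not tested. The Tcf21 difference stayed negative when any 1 kidney was left out (-0.31 to -0.21), but its unadjusted p rose to 0.0583 with S replicate 1 left out and 0.0989 with S replicate 2 left out. It rose to 0.055 when congenic replicate 1 was omitted and to 0.083 when it was congenic replicate 2. With arrays centred on their medians the log2 difference was -0.19 (limma, unadjusted p = 0.127). The sample titles open with a number of unstated meaning, and among kidneys numbered under 10 the Tcf21 difference was -0.31, among the others -0.17.

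The other transcription factor, Wt1, read 385.3, 360.3 and 356.9 in S kidneys and 354.4, 394 and 267.1 in congenic kidneys. The congenic values spanned the S values, and congenic replicate 3 stood lowest. The log2 difference was -0.14 (95% interval -0.51 to 0.24, limma adjusted p = 0.817), and without congenic replicate 3 it was 0.02. The second Wt1 probe set, under the filter at 67.06 to 129.8, had a difference of 0.20 (95% interval -0.61 to 1.0), opposite in sign.

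Nphs1, the nephrin gene, read 290.3, 320.9 and 408 in S kidneys and 398.8, 315.7 and 384.6 in congenic kidneys. High and low kidneys occurred in both strains, with S replicate 3 and congenic replicate 1 the highest and S replicate 1 the lowest. The log2 difference was 0.12 (95% interval -0.26 to 0.50, limma adjusted p = 0.849, exact permutation p = 0.7). The second Nphs1 probe set read 124.7 to 151.9 in S and 128.1 to 172.3 in congenic kidneys, a log2 difference of 0.22 from the fit of all probe sets, since its signal lay under the filter. Both probe sets of Nphs1 thus had higher congenic means within overlapping strains. The size rested in part on single kidneys: the difference of the brighter probe set ran from 0.01 to 0.26 when 1 kidney was left out.

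Podxl, of the apical surface, had the steadiest signal of the members. It read 1592, 1510 and 1478 in S kidneys and 1503, 1566 and 1469 in congenic kidneys, a ratio of highest to lowest of 1.08. The log2 difference was -0.01 with a 95% interval of -0.21 to 0.18 (limma adjusted p = 0.974), the narrowest interval of the 13 probe sets. The 2 dimmer Podxl probe sets had wider intervals and differences of -0.29 (-0.70 to 0.12) and -0.08 (-0.58 to 0.42). Ptpro, the other surface gene, read 477.5, 517.7 and 508.3 in S kidneys and 563, 576.1 and 389.1 in congenic kidneys. The S kidneys lay close together, while 2 congenic kidneys lay above all of them and congenic replicate 3 below all of them. The log2 difference was 0.00218 (95% interval -0.34 to 0.35, limma adjusted p = 0.998), and without congenic replicate 3 it was 0.19. Among kidneys with title numbers under 10 the Ptpro difference was 0.25, and among the others, which include congenic replicate 3, it was -0.40.

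**Figure D2:**
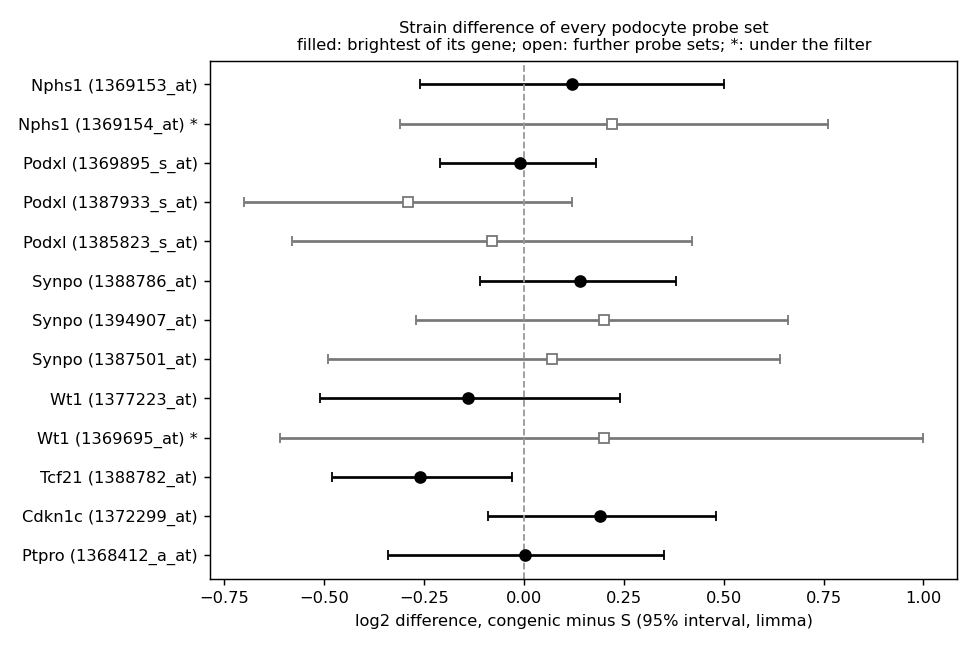
Log2 difference, congenic minus S, of all 13 podocyte probe sets with the 95% interval from limma; filled points are the brightest probe set of a gene, open squares further probe sets, and asterisks mark 2 probe sets under the filter. The interval of Tcf21 (-0.48 to -0.03) is the one that leaves out 0.

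Synpo, the foot process gene, read 1369, 1035 and 1140 in S kidneys and 1398, 1235 and 1246 in congenic kidneys. S replicate 1 lay among the congenic values and the other S kidneys below them. The log2 difference was 0.14 (95% interval -0.11 to 0.38, limma adjusted p = 0.703), and its other probe sets had 0.20 and 0.07. All 3 Synpo probe sets were thus higher in the congenic mean, none beyond the spread between kidneys. The difference was 0.25 without S replicate 1 (limma, unadjusted p = 0.0449), where Synpo in place of Tcf21 was the 1 member below 0.05, and 0.05 without S replicate 2, and it was -0.06 among kidneys with title numbers under 10 and 0.20 among the others. Cdkn1c, the cell cycle inhibitor gene, read 1360, 1400 and 1026 in S kidneys and 1678, 1372 and 1272 in congenic kidneys. Its log2 difference was 0.19, the highest of the members (95% interval -0.09 to 0.48, limma adjusted p = 0.632, exact permutation p = 0.5). The highest value was that of congenic replicate 1 and the lowest that of S replicate 3, with the other 4 kidneys between 1272 and 1400. Without congenic replicate 1 or without S replicate 3 the difference was under 0.19, and over all kidneys left out in turn it ran from 0.05 to 0.28.

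The second question was whether the members moved together from kidney to kidney. The median Pearson r over the 21 pairs of members was 0.03, with 13 pairs above 0 (61.9%). Over all pairs of the 9334 tested genes the median was 0.00, with 50.2% above 0. After each strain's mean was removed, the median over the members was 0.00 and 11 pairs were above 0. Values ran from -0.88 to 0.84. In no kidney were all 7 members on the same side of their own means: the number above ranged from 2 in congenic replicate 3 to 5 in S replicate 1, congenic replicate 1 and congenic replicate 2. The mean log2 deviation of the members was 0.03, -0.0020 and -0.04 in S replicates 1 to 3 and 0.11, 0.02 and -0.11 in congenic replicates 1 to 3. The highest and the lowest kidney were thus both congenic. Within strains the members' log2 signals had a median SD of 0.209, against 0.150 over the 4841 tested genes of like signal.

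**Figure D3:**
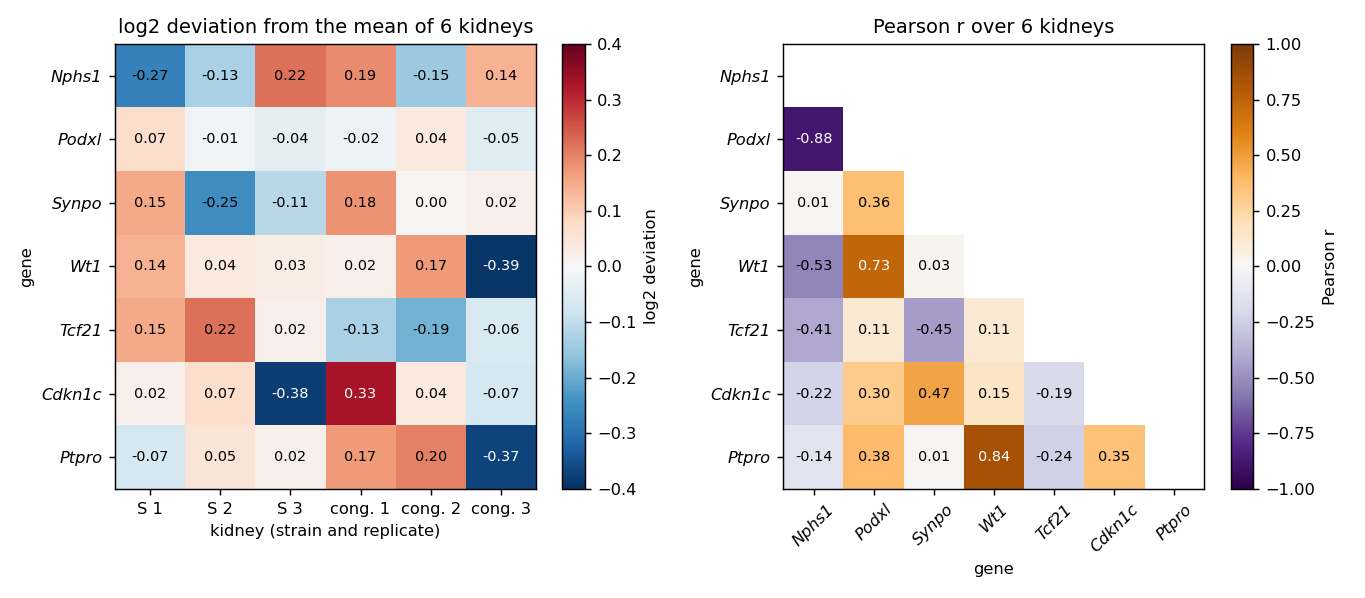
Left, log2 deviation of each of 7 podocyte genes from its mean over 6 kidneys (red above, blue below); right, Pearson r over the 6 kidneys for each of the 21 pairs. No kidney column has a single colour, and r runs from -0.88 (Nphs1 with Podxl) to 0.84 (Wt1 with Ptpro).

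Nephrin served as the reference gene. Of its 6 pairs, 5 had a negative r: -0.88 with Podxl, -0.53 with Wt1, -0.41 with Tcf21, -0.22 with Cdkn1c and -0.14 with Ptpro, and with Synpo r was 0.01. The kidneys with the lowest Nphs1 signal, S replicate 1 and congenic replicate 2, had the highest Podxl signal. For this pair Spearman's rho was -0.83 (exact permutation p = 0.0583, adjusted p = 0.612), and Pearson's r had exact permutation p = 0.0139, adjusted p = 0.292 over the 21 pairs. The r was -0.88 after removal of the strain means and -0.73 without S replicates 1 and 3, the kidneys farthest from the Nphs1 median. It was -0.35 with arrays centred on their medians. The highest Nphs1 signal was 1.41 times the lowest, and for Podxl this ratio was 1.08. These values are for the brightest probe set of each gene. The 2 dimmer Podxl probe sets did not follow the brightest one (r of -0.01 and -0.10), and their r with Nphs1 was not examined.

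Among the other pairs, Wt1 with Ptpro had the highest r, 0.84 (exact permutation p = 0.0889, adjusted p = 0.622; rho = 0.49, exact permutation p = 0.356, adjusted p = 1.0). That value rested on congenic replicate 3, the lowest kidney for both genes, without which r was 0.04, and it was -0.83 without congenic replicates 2 and 3. Wt1 with Podxl had r = 0.73 (exact permutation p = 0.0875, adjusted p = 0.622) and rho = 0.89 (exact permutation p = 0.0333, adjusted p = 0.612), and r stayed at 0.73 without S replicate 1 and congenic replicate 2. No pair passed after adjustment over the 21 pairs. With 6 kidneys the smallest p that the 720 pairings allow for rho is about 0.00278. For r it can be smaller, since the reversed pairing need not give an r of the same size.

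**Figure D4:**
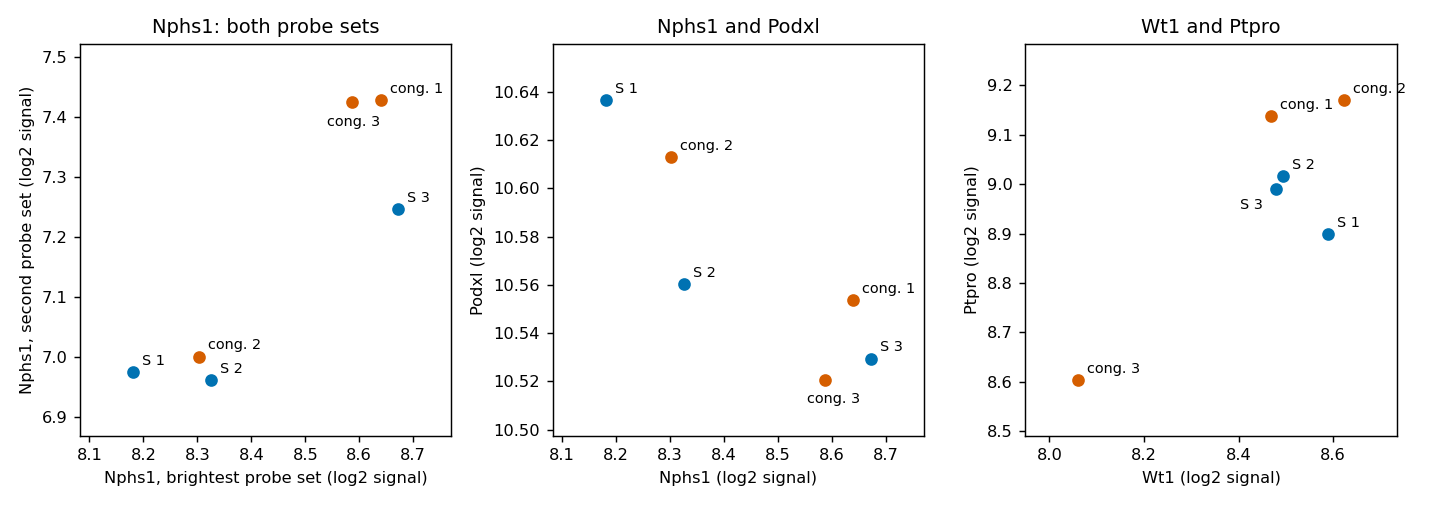
Log2 signal in 6 kidneys (S blue, congenic orange) of both Nphs1 probe sets, of Nphs1 against Podxl and of Wt1 against Ptpro. The Nphs1 probe sets fall into the same low and high kidneys (r = 0.89). The brightest Podxl probe set runs against Nphs1 over a narrow range (r = -0.88). The Wt1 and Ptpro relation hangs on congenic replicate 3.

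Probe sets of a single gene gave a measure of how well kidney-to-kidney movement was read; these pairs were examined after the values had been seen. For Nphs1, S replicates 1 and 2 and congenic replicate 2 were low and the other 3 kidneys high with both probe sets, and r was 0.89 (exact permutation p = 0.0764, adjusted p = 0.611 over 8 such pairs; rho = 0.66, exact permutation p = 0.175, adjusted p = 1.0). It was 0.99 without the 2 kidneys farthest from the median. The other genes did not repeat this. The 3 pairs of Podxl probe sets had r from -0.10 to 0.06, those of Synpo 0.18 to 0.45, and the Wt1 pair had -0.43. The Podxl probe sets carry the suffix used for probes that can match more than 1 transcript, and the second Wt1 probe set lay under the filter.

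The kidney profile of the members' mean was then set beside all other genes. The 5 tested genes most like it, by Pearson r over the 6 kidneys, were Efemp1 (0.991), which encodes the matrix protein fibulin-3, Ube2m (0.988), a conjugating enzyme for NEDD8, Bbc3 (0.978), the pro-apoptotic PUMA gene, Derl1 (0.977), of endoplasmic reticulum quality control, and Mgat1 (0.975), an N-glycan branching enzyme. Efemp1 read 382.8, 350 and 330.3 in S and 452.6, 365.3 and 293.5 in congenic kidneys. Like the members' mean, it was highest in congenic replicate 1 and lowest in congenic replicate 3. None of the 5 was on a list of podocyte or glomerular genes. In all, 76 of 9327 genes reached r = 0.9, and of 107 listed podocyte and glomerular genes 1 did, the keratin gene Krt18 (0.95). An r above 0 was found for 55.1% of those 107 and for 52.2% of all genes. With 6 kidneys and 9327 genes searched, some high r values are bound to occur, so the ranking is a description only. The members did not all share the mean profile. The r with the mean of the other members was -0.51 for Nphs1 and -0.41 for Tcf21, and 0.14 to 0.55 for the rest.

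Other podocyte genes came from 4 lists, of slit diaphragm genes, cytoskeleton and surface genes, transcription factors, and secreted or signalling genes. Of their 84 genes 60 were tested, 0 passed the adjusted threshold in limma and 9 had unadjusted p below 0.05 (4 higher and 5 lower in congenic kidneys), which is 15.0% against the 10.3% of all probe sets. Their median log2 difference was 0.01, like that of all genes. In whole-kidney RNA these differences cannot be assigned to podocytes, since other kidney cells may express the same genes. In the slit diaphragm list 7 of 13 were higher, and the 3 genes of smallest p were Prkci (0.39), Igsf5 (0.23) and Pard6b (0.21). Prkci and Pard6b encode the atypical kinase and the PAR6 subunit of the polarity complex that nephrin joins, and Igsf5 encodes a junction protein that binds MAGI scaffolds. The other tested Prkci probe set had -0.05.

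In the cytoskeleton and surface list 13 of 23 were higher. Ezr, the ezrin gene whose product links podocalyxin to actin, had 0.19, from 11790 ± 975 in S to 13430 ± 461 in congenic kidneys, and it is also abundant in the tubular brush border. Vcl and Parva, whose products vinculin and parvin act at focal adhesions, each had -0.24. Of the 6 transcription factors tested, 4 were lower: Zeb2 had -0.87, from 518.7 ± 99.9 to 285.7 ± 68.8 (limma, unadjusted p = 6.52e-04, adjusted p = 0.175). The 3 Zeb2 values in congenic kidneys (327.1, 323.7 and 206.2) lay below those in S kidneys (432.2, 628.1 and 495.8). Its other tested probe sets had -0.09 and -0.20, and those under the filter -0.60 and -0.39. Zfp423 had -0.46 and the glucocorticoid receptor gene Nr3c1 -0.14. In the secreted and signalling list 10 of 18 were higher. Vegfa, the growth factor podocytes send to the glomerular endothelium, read 2838, 3074 and 3358 in S and 2407, 2470 and 2702 in congenic kidneys, a difference of -0.29 (limma, unadjusted p = 0.00578, adjusted p = 0.289), and its second probe set had -0.13. Efnb1 had -0.38 and Plat -0.20.

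**Figure D5:**
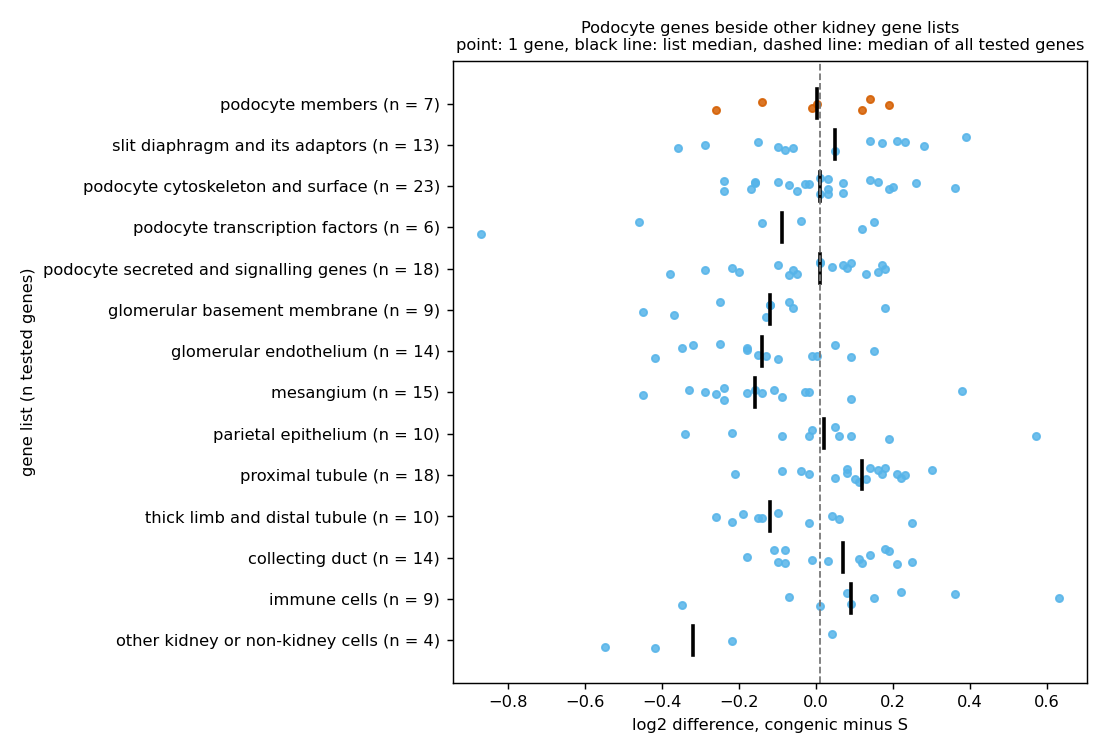
Log2 difference, congenic minus S, of each tested gene in the podocyte members (orange) and 13 other lists (blue); black lines are list medians and the dashed line is the median of all tested genes (0.01). The members' median is 0.0022, and list medians run from -0.32 (other kidney or non-kidney cells, 4 genes) to 0.12 (proximal tubule).

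The other parts of the glomerulus were set beside the members. Of 9 tested basement membrane genes 8 were lower in congenic kidneys, with a median log2 difference of -0.12. Of 14 endothelial genes 10 were lower (median -0.14), and of 15 mesangial genes 13 were lower (median -0.16), whereas 47.6% of all tested genes were lower. With arrays centred on their medians these counts were 7, 9 and 11, and the median of all tested genes moved from 0.01 to 0.08. Medians of the 3 lists stayed negative under the normalisations tried, under the block for title number and without any 1 kidney. None of their genes passed the adjusted threshold. Hspg2, the perlecan gene, had -0.45, and Col4a5 and Col4a4, chains of the mature basement membrane collagen that podocytes make, had -0.25 and -0.37. Col4a5 read 3777, 3638 and 3689 in S and 3225, 3143 and 3000 in congenic kidneys (limma, unadjusted p = 0.00636, adjusted p = 0.291). Ehd3 and Sox17 of the endothelium had -0.42 and -0.35, although the Sox17 probe sets under the filter had 1.01 and 1.42, and Itga8 and Fhl2 of the mesangium had -0.45 and -0.26. Plvap, which stands on both lists, had -0.18. Many genes of these lists are also active in other vessels and interstitial cells of the kidney.

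By kidney, the mean log2 deviation of the mesangial list was 0.04, 0.05 and 0.12 in S replicates 1 to 3 and -0.04, -0.13 and -0.04 in congenic replicates 1 to 3. That of the endothelial list was 0.03, 0.04 and 0.12 against -0.03, -0.07 and -0.09. For the basement membrane list it was 0.13, -0.01 and 0.11 against -0.08, -0.07 and -0.08. The strains overlapped in the mean of the podocyte members. Of the other 13 lists 6 had strains that did not overlap, 5 with congenic kidneys lower and 1 with them higher. Besides these 3 lists they were the podocyte transcription factors (0.21, 0.10 and 0.0018 in S against -0.07, -0.12 and -0.12), the list of other kidney or non-kidney cells (0.28, 0.05 and 0.10 against -0.26, -0.20 and 0.03) and, with congenic kidneys higher, the immune cells (-0.07, -0.02 and -0.09 against 0.05, 0.04 and 0.09). Non-overlap of list means occurred in podocyte, other glomerular and non-glomerular lists. How often means of such lists separate was not measured, since the 7.98% and 7.99% given above are for single probe sets. In the list of other kidney or non-kidney cells, no single tested gene had strains that did not overlap. Whether any list differs from the members was not tested. Their median r with the members' mean profile was -0.18 for mesangium, -0.05 for endothelium and 0.16 for basement membrane, against 0.03 for all tested genes. Parietal epithelial genes split 5 and 5, with Prom1 at 0.57 (limma, unadjusted p = 1.87e-04, adjusted p = 0.126), Scin at -0.34 and Pax2 at 0.19. Prom1 had adjusted p = 0.0435 with arrays centred on their medians. Among lists of other cells, the median was 0.12 for the proximal tubule with 14 of 18 genes higher. It was 0.09 for immune cells with 7 of 9 higher, and 0.07 for the collecting duct with 8 of 14 higher. Of the 15 immune genes 9 were tested, which left out the T and B cell markers, and the leukocyte marker Ptprc was lower (-0.35). The median was -0.12, as in the basement membrane list, for the thick limb and distal tubule, where 7 of 10 were lower. Of these 10 genes, 2 were lower and 1 was higher at unadjusted p below 0.05, the latter being Umod (0.25, limma, unadjusted p = 0.0359). Over all tested genes these shares were 4.84% lower and 5.55% higher. The median was -0.32 for the list of other kidney or non-kidney cells, where 3 of 4 tested genes were lower. In that list the red cell genes Hbb, for beta-globin, and Alas2, of erythroid haem synthesis, had -0.42 and -0.55 (limma, unadjusted p = 0.0183 and 0.0184). The part of these cells in the results was not tested.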

How the data were processed

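Whole-kidney RNA of 3 S and 3 congenic rats was measured on 1-colour arrays. The authors deposited linear intensities per probe set, made with GCOS 1.4 per the submitters' processing notes, with settings and detection calls not given in the sources used here. Trimmed means of the arrays were nearly equal. No further normalisation was applied. Array controls (57) were left out, values under the 10th percentile of the table (12.3) were raised to it, log2 was taken, and the 15521 probe sets with mean log2 above the median were tested. Symbols were updated through Entrez identifiers in GRCr8 (20826 probe sets with 1 symbol, 436 with several, 9780 with none). Strain differences were fitted by limma 3.58.1 under R 4.3.3 (eBayes with intensity trend, Benjamini-Hochberg over all probe sets tested, threshold 0.05). The fit was tested on simulated data with planted changes larger than any difference of the members. Its power at the size of the members' differences was not tested. A single value also had the exact 2-sided permutation test over the 20 splits, and a correlation the one over 720 pairings. Precision is limited by the 6 arrays (median SE 0.145 on the log2 scale). Named are the members and, from each podocyte or glomerular list, the 3 tested genes of smallest p. From the lists of other cells, Hbb and Alas2 are named besides the tissue checks, outside this rule. Each list gene is represented by its brightest tested probe set. Members, lists, tests and alternatives were chosen with earlier results of these data known. The promoter motifs were chosen later. The p-values and intervals of limma rest on a gene's spread between these 6 animals, pulled toward that of probe sets of like signal (prior degrees of freedom 10.69). Permutation p-values rest on the 6 kidneys alone.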

Additional observations from a re-analysis of the deposited data

How the results depend on the processing

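No paired analysis was possible because the labels link no S kidney to a congenic kidney. Replicate numbers here only follow the order of the samples within a strain. No member passed the adjusted threshold under any alternative run. Of 221 values for single members and named pairs under the alternatives, 203 kept their sign. Alternatives that changed only the filter, the variance trend or the floor left these values as they were. The sign could not turn under those, so the count is no measure of robustness by itself. Probe sets past the adjusted threshold numbered 9 with median centring and 0 to 41 with 1 kidney left out (41 with S replicate 1 left out, 6 with congenic replicate 1 left out, 3 with congenic replicate 3 left out); at unadjusted p below 0.05 there were 2462 without the filter. Of the 1602 in the main setting 45.7% were higher in congenic kidneys, and with median centring 79.2% (1472 higher, 386 lower). The count of members at unadjusted p below 0.05 was 0 with median centring and with the block for title number (numbers under 10 against the rest), and 0 to 1 with 1 kidney left out (Synpo, not Tcf21, without S replicate 1). With median centring, Podxl had a log2 difference of 0.06, 1 listed gene (Prom1) passed, the median r of the members was 0.13 and r of Nphs1 with Ptpro 0.06. With the title block Ptpro had -0.07 and the median r was -0.04. With quantile normalisation r of Nphs1 with Synpo was -0.02. With the mean of a gene's probe sets Wt1 had 0.03 and the median r was -0.08. With the second brightest probe set Wt1 had 0.20, the members' median difference was 0.19 and the median r -0.10. With 1 kidney left out, ranges were -0.04 to 0.02 for Podxl, -0.26 to 0.02 for Wt1, -0.10 to 0.19 for Ptpro, -0.05 to 0.14 for the median r, -0.34 to 0.45 for Nphs1 with Synpo, -0.83 to 0.41 for Nphs1 with Cdkn1c and -0.39 to 0.30 for Nphs1 with Ptpro. The cause of these changes was not tested. A median r was taken to move when it changed by more than 0.0667, its SD over the kidneys left out. Without detection calls, low signals such as the second probe sets of Nphs1 and Wt1 could not be set apart from background.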
